A study of Mus musculus with 16 samples.

Results

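The telomerase enzyme and its partner proteins were described here by 10 genes, which were matched by Ensembl identifier to the gene count table: Terc, Tert, Dkc1, Nop10, Nhp2, Gar1, Naf1, Wrap53, Parn and Tep1. The protein-coding genes among them, 9 of the 10, had a row among the 55357 genes of the table, and all 9 were among the 14421 genes that passed the filter on low counts. Tert lies on chromosome 13, Dkc1 on X, Nop10 on 2, Nhp2 and Wrap53 on 11, Gar1 on 3, Naf1 on 8, Parn on 16 and Tep1 on 14. Terc, the telomerase RNA gene that carries the mutations, was not analysed here, so the targeted RNA could not be used to check the genotype labels. In these livers none of the 9 genes passed the test in either mutant line. Of all tested genes, 0.0277% passed in the AUG line and 0.0% in the del7 line. The 9 genes differed from each other in level by about an order of magnitude per kilobase of exon, and Tert and Gar1 varied between replicate libraries far more than Naf1, Wrap53, Parn and Tep1.

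The study sequenced total RNA from mouse liver, depleted of ribosomal RNA and made into strand-specific libraries. There were 4 groups of 4 libraries. The AUG group carried the genotype labelled mTERC CUG/AUG. The AUG_WT group was its wild type. The del7 group lacked 7 nucleotides of the telomerase RNA, positions 29 to 35, labelled mTERC 29_35del. The del7_WT group was the wild type of that line. No animal was treated, and the labels give no strain, age or sex. The labels do not say whether the replicates of a group were separate animals, so the p-values measure only the spread between these libraries, which may be technical. The series is named for TERP, a protein that has been described as the product of an open reading frame within human telomerase RNA.

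Telomerase copies a short template in its RNA onto chromosome ends. TERT is the reverse transcriptase that does the copying. In vertebrates the 3′ end of the RNA has the fold of an H/ACA small nucleolar RNA, and the proteins dyskerin (Dkc1), NOP10, NHP2 and GAR1 bind it and keep it stable. NAF1 holds the place of GAR1 while the particle is assembled. WRAP53, also called TCAB1, takes the RNA to Cajal bodies, and the ribonuclease PARN trims the short A tails of the immature RNA. TEP1 was found as a telomerase-associated protein and is also a part of vault particles. In mouse liver, strong Tert expression is known from a rare subset of hepatocytes, while the H/ACA proteins serve ribosomal RNA modification in every cell.

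Gene count totals lay between 7714058 and 14629022 reads per library. The 8 hepatocyte markers examined summed to between 106900 and 164900 CPM in 15 libraries and to 48090 CPM in AUG_WT replicate 1, where CPM is a gene's read count scaled to the size of its library. In that library 8 proliferation markers summed to 452.1 CPM against 29.1 to 48.5 CPM in the 15 others, and 7 B and plasma cell markers summed to 826.1 CPM against 34.3 to 333.8 CPM. The 6 T and NK cell markers there summed to 153.8 CPM against 5.19 to 25.3 CPM in the others, and none of these marker genes was at 0 over the series. The library also had the highest score on the first principal component, 126.1 against values from -21.6 to 10.7, and a TMM scaling factor of 1.36 against 0.877 to 1.04. Its share of reads in no gene was the highest of the series, 34.97%, where the next highest was 29.4% in del7_WT replicate 1. Its share of reads with several positions was the lowest, 9.23%, where the next lowest was 10.2% in del7_WT replicate 1. The part of these read shares in the gene values of AUG_WT replicate 1 was not tested. For the 9 genes other than Parn, AUG fold changes are therefore given without this library as well, as are list counts in the AUG line. Single genes of the lists are given with all libraries only, so how far their AUG values rest on this library is not shown. In whole tissue, fewer cells of one type and less RNA per cell cannot be told apart.

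Per kilobase of exon, Nop10 and Nhp2 stood at the top of the group and Gar1 and Naf1 at the bottom. Levels were compared between genes as TMM-scaled CPM divided by the length of the gene's merged exons, here called RPKM. Nop10, the smallest of the core H/ACA proteins, averaged 17.7 ± 3.05 RPKM over the 16 libraries (SD), which was above 87.4% of the tested genes. Nhp2 averaged 8.64 ± 1.96 RPKM. Nop10 lay above Nhp2, and Nhp2 above the next gene, in 16 of 16 libraries.

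Parn followed with 4.82 ± 0.523 RPKM, Tep1 with 4.23 ± 0.616 RPKM and Dkc1 with 4.05 ± 1.03 RPKM. These neighbours were not separated by their spread. Parn was above Tep1 in 13 of 16 libraries, and Tep1 was above Dkc1 in 10 of 16. Tert averaged 3.27 ± 1.06 RPKM, near the middle of the tested genes at the 49.8th percentile, and was below Dkc1 in 10 of 16 libraries and above Wrap53 in 9 of 16.

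Wrap53 averaged 2.99 ± 0.394 RPKM, Gar1 2.08 ± 0.804 RPKM and Naf1 1.80 ± 0.248 RPKM. Gar1, the mature subunit, was above Naf1, the assembly factor whose place it takes, in 12 of 16 libraries. The ratio of their RPKM values ran from 0.652 to 2.02. This order rests on the merged exon lengths, 1714 nt for Gar1 and 3094 nt for Naf1. In CPM, which is not divided by length, Gar1 had the lower mean in every group. Its group means were 3.37 to 3.90 CPM against 5.01 to 6.20 CPM for Naf1. These are RNA levels, and the proteins were not measured. Within the core, Nop10 stood at 4.59 ± 1.15 times the RPKM of Dkc1 and Nhp2 at 2.19 ± 0.442 times. The proteins of these 3 genes sit together in the same particle. Both ratios also rest on the merged exon lengths, 1109 nt for Nop10, 1146 nt for Nhp2 and 4121 nt for Dkc1. In CPM, Nhp2 had a lower mean than Dkc1 in every group, 9.19 to 10.4 CPM against 14.4 to 18.7 CPM. Nop10 had the higher mean in every group, 18.6 to 21.7 CPM.

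**Figure D1:**
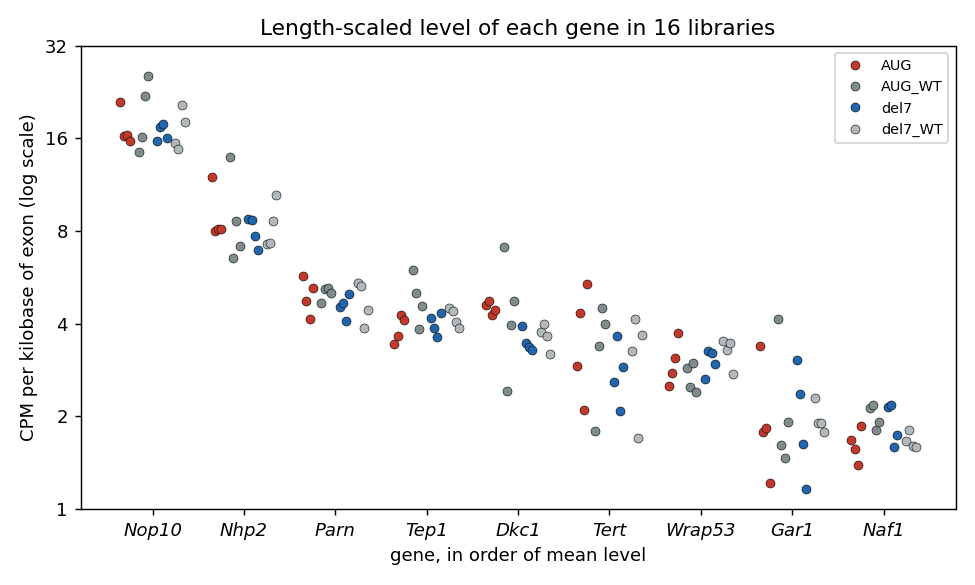
Each point is 1 of 16 liver libraries, coloured by group, with the 9 genes ordered by their mean level and CPM per kilobase of exon on a log scale. Nop10 and Nhp2 have the highest means, 17.7 and 8.64 RPKM, and the highest Dkc1 point, 7.10 RPKM, reaches above the lowest Nhp2 point, 6.54 RPKM, in another library. Among the 5 genes from Parn to Wrap53, with means between 4.82 and 2.99 RPKM, neighbours overlap. The lowest Parn point, 3.86 RPKM, is above the highest Wrap53 point, 3.72 RPKM.

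Tert, the catalytic subunit, was detected in every library with 75 to 385 reads. It had 16.6, 24.8, 12.0 and 30.7 CPM in the AUG livers, against 10.2, 19.4, 25.8 and 22.9 CPM in the AUG_WT livers. The del7 livers had 14.8, 20.9, 11.9 and 16.6 CPM, against 18.7, 23.7, 9.73 and 21.1 CPM in the del7_WT livers. The groups overlapped in both lines, and the highest and the lowest of the 16 libraries, an AUG and a del7_WT liver, differed 3.16-fold. The log2 fold change was 0.11 (SE 0.33, 95% interval -0.60 to 0.81) in the AUG line and -0.20 (SE 0.33, -0.90 to 0.51) in the del7 line. The AUG value was -0.09 without AUG_WT replicate 1 (SE 0.31, -0.74 to 0.57). Adjusted p-values from edgeR's quasi-likelihood test, with all libraries, were 0.944 in the AUG line and 1.0 in the del7 line.

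Tert and Gar1 were the most variable of the 9 genes between libraries of the same group. The within-group SD of Tert was 0.533 on the log2 CPM scale, larger than that of 79.2% of the tested genes, whose median was 0.312. That of Gar1 was 0.529, and those of Naf1, Wrap53, Parn and Tep1 lay between 0.158 and 0.175. Without AUG_WT replicate 1 the SD of Tert was 0.473, larger than that of 82.6% of genes. For Tert, replicates 1 and 3 were both below replicates 2 and 4 in the AUG, del7 and del7_WT groups but not in the AUG_WT group. This order was counted for Tert alone, without the share over all tested genes, so it cannot be read as a trait of Tert.

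Dkc1, Nhp2, Gar1 and Tep1, 4 of the 9 genes, were highest of the 16 libraries in AUG_WT replicate 1, as were 28.9% of all tested genes. The promoter windows of the 3 H/ACA genes among them are shown with that of Tert, whose value there was among its lowest. The windows hold the 250 bases before the RefSeq start in mouse build GRCm38.p6, read 5′ to 3′ on the gene's strand, and capitals mark the letters GGGCGG (GC box), CCAAT and CCGGAAG (ETS-type) or their reverse complements. Dkc1 lies at chrX:75095604-75095853 on the plus strand, Nhp2 at chr11:51619523-51619772 on the plus strand, Gar1 at chr3:129831397-129831646 on the minus strand and Tert at chr13:73626661-73626910 on the plus strand.
Dkc1: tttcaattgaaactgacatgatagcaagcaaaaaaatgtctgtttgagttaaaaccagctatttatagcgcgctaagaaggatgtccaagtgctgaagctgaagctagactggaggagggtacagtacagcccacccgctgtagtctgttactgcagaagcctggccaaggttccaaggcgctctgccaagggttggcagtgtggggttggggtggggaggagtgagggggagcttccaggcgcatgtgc
Nhp2: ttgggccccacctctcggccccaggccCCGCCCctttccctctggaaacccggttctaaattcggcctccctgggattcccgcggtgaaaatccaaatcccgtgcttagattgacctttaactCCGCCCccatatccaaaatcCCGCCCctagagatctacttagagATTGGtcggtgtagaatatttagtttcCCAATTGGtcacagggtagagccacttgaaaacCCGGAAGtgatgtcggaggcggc
Gar1: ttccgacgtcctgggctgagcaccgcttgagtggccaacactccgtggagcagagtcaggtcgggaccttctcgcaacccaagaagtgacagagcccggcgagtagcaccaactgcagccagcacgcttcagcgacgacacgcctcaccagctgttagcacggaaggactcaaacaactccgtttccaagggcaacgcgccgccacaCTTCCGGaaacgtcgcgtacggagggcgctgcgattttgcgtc
Tert: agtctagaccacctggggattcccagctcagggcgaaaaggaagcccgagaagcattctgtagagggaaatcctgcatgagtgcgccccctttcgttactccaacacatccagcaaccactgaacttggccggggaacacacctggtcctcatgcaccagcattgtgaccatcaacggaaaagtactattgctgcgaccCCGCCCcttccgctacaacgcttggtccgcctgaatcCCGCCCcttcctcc
The Dkc1 window held none of the motifs searched, Nhp2 held 7 matches of 3 kinds, Gar1 held 1 ETS-type match and Tert held 2 GC boxes. In Nhp2, CCAAT and its reverse complement overlap in CCAATTGG. RefSeq windows were found for 7 of the genes, 8 windows in all, since Wrap53 had 2. The GC box, searched on both strands, was in 3 of these 8 windows and in 32.7% of 32851 windows of all genes. CCAAT was in 2 of 8 and in 33.8% of all windows, and CCGGAAG in 2 of 8 and in 6.91% of all windows. The E-box CACGTG, the site of the MYC family, was in 1 of the 8, a window of Wrap53, and in 6.02% of all windows. A match is a run of letters and says nothing here about binding.

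Dkc1, whose protein dyskerin is the pseudouridine synthase of the H/ACA particle, had 18.9, 19.6, 17.5 and 18.3 CPM in the AUG livers. It had 29.2, 9.96, 16.2 and 19.5 CPM in the AUG_WT livers. The AUG libraries lay close together, inside the wide range of their wild types, which held both the highest and the lowest of the 16 values. In the del7 livers Dkc1 had 16.1, 14.2, 13.8 and 13.6 CPM, against 15.5, 16.4, 15.1 and 13.2 CPM in the del7_WT livers, and these groups overlapped. The log2 fold change was -0.02 (SE 0.22, 95% interval -0.49 to 0.45) in the AUG line and -0.06 (SE 0.22, -0.53 to 0.42) in the del7 line. Without AUG_WT replicate 1, the AUG value was 0.30 (SE 0.17, -0.06 to 0.67), with an edgeR adjusted p of 0.84.

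Nhp2 and Gar1 repeated the high value in that library. Nhp2 had 13.7, 9.15, 9.32 and 9.34 CPM in the AUG livers, against 16.0, 7.49, 9.89 and 8.22 CPM in the AUG_WT livers. The first replicate of each group was the high one and the remaining 6 libraries lay between 7.49 and 9.89 CPM. In del7 livers the gene had 10.0, 9.93, 8.84 and 7.96 CPM, against 8.34, 8.36, 9.86 and 12.0 CPM in the del7_WT livers, with overlap. Its log2 fold change was -0.0064 (SE 0.22) in the AUG line, 0.31 (SE 0.19, 95% interval -0.09 to 0.70) without AUG_WT replicate 1, and -0.06 (SE 0.23) in the del7 line.

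Gar1 was the gene with the fewest reads, 16 to 101 per library, and its values carried the most counting error. It had 5.78, 3.05, 3.14 and 2.08 CPM in the AUG livers, against 7.08, 2.75, 2.50 and 3.27 CPM in the AUG_WT livers. The del7 livers had 5.22, 4.04, 2.79 and 1.99 CPM, against 3.92, 3.25, 3.25 and 3.04 CPM in the del7_WT livers. Both mutant groups spanned their wild types except for AUG_WT replicate 1, which was above all other libraries. The log2 fold change was -0.16 in the AUG line (SE 0.38, 95% interval -0.97 to 0.64), 0.32 without AUG_WT replicate 1 (SE 0.34, -0.41 to 1.04), and 0.07 in the del7 line (SE 0.38, -0.74 to 0.88).

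Nop10, the fourth protein of the core, did not share the high value in AUG_WT replicate 1. It had 23.3, 18.1, 18.3 and 17.4 CPM in the AUG livers, against 16.1, 17.9, 24.4 and 28.3 CPM in the AUG_WT livers. The del7 livers had 17.5, 19.4, 19.8 and 17.8 CPM, against 17.1, 16.4, 22.8 and 20.0 CPM in the del7_WT livers. AUG_WT replicate 1 was here the lowest of the 16 libraries, so that within this library the 4 core genes did not move as a block. With counts scaled to the gene total alone, Nop10 had 21.7 CPM there and was no longer lowest, whereas Dkc1, Nhp2, Gar1 and Tep1 were highest there under both that scaling and the median of ratios. Scaled to the gene total, Naf1, Wrap53 and Parn were highest there as well. In the AUG line the log2 fold change of Nop10 was -0.17 (SE 0.17), with a value of -0.27 without AUG_WT replicate 1 and -0.0081 without AUG_WT replicate 4. In the del7 line it was -0.03 (SE 0.17).

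The 28.9% of all genes that were highest in AUG_WT replicate 1 under TMM scaling were 4169 of the 14421 tested. The proliferation and lymphocyte marker levels given above moved with these values, and their part in them was not tested. Against the mean of the other AUG_WT libraries, replicate 1 was 1.92 times as high in Dkc1, 1.87 times in Nhp2, 2.49 times in Gar1 and 1.33 times in Tep1. In the same terms it was 1.09 times as high in Naf1 and in Wrap53, 0.91 times in Parn, 0.682 times in Nop10 and 0.451 times in Tert. These ratios are under TMM scaling, and the order of this library under other scalings is given above.

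**Figure D2:**
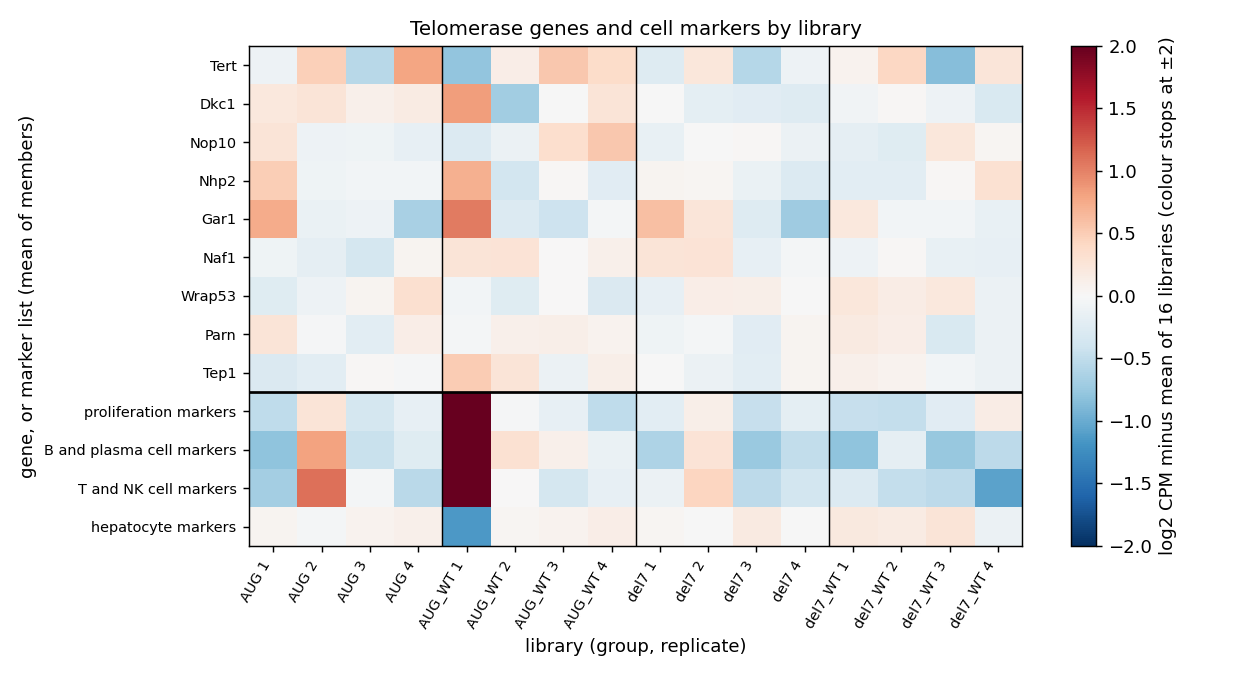
Rows are the 9 genes and, under the black line, the means of 4 marker lists; columns are the 16 libraries by group, and colour is log2 CPM minus the mean of the 16 libraries, stopped at 2 above or below. In AUG_WT 1, Dkc1, Nhp2, Gar1 and Tep1 and the proliferation and lymphocyte markers are high while Tert, Nop10 and the hepatocyte markers are low.

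Naf1, the assembly factor, had the largest difference between the effects in the 2 lines. It had 5.16, 4.84, 4.28 and 5.75 CPM in the AUG livers, against 6.59, 6.73, 5.57 and 5.91 CPM in the AUG_WT livers. Every AUG library was below the AUG_WT mean, but the highest AUG library exceeded the lowest AUG_WT library. The del7 livers had 6.64, 6.70, 4.90 and 5.35 CPM, against 5.11, 5.58, 4.93 and 4.92 CPM in the del7_WT livers, also with overlap.

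The log2 fold change of Naf1 was -0.31 in the AUG line (SE 0.15, 95% interval -0.63 to 0.02), with an edgeR adjusted p of 0.589. In the del7 line it was 0.20 (SE 0.15, -0.12 to 0.53), with an edgeR adjusted p of 1.0. The difference between these 2 values, tested as an interaction in the same edgeR fit, was -0.51 (SE 0.22, -0.97 to -0.05), with an unadjusted p of 0.0318 and an adjusted p of 0.864. It did not pass the correction, and without AUG_WT replicate 1 the unadjusted edgeR p was 0.0508. The AUG value was then -0.26 (SE 0.16, -0.59 to 0.08).

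Wrap53, the Cajal body factor, had 5.16, 5.68, 6.37 and 7.66 CPM in the AUG livers, against 5.89, 5.12, 6.14 and 4.95 CPM in the AUG_WT livers. In del7 livers the gene had 5.45, 6.70, 6.63 and 6.10 CPM, against 7.21, 6.78, 7.14 and 5.63 CPM in the del7_WT livers. All groups overlapped. Its log2 fold change was 0.17 (SE 0.16, 95% interval -0.16 to 0.51) in the AUG line and -0.11 (SE 0.16, -0.44 to 0.23) in the del7 line. Without AUG_WT replicate 1, the AUG value was 0.23 (SE 0.16, -0.11 to 0.57).

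Parn, the nuclease that matures the RNA, had the smallest range of the 9 genes, 1.48-fold over all 16 libraries. It had 30.8, 25.5, 22.3 and 28.2 CPM in the AUG livers, against 25.2, 27.8, 28.1 and 27.1 CPM in the AUG_WT livers. The del7 livers had 24.4, 25.0, 22.0 and 26.8 CPM, against 29.1, 28.4, 20.8 and 23.9 CPM in the del7_WT livers. The groups overlapped fully, with log2 fold changes of -0.02 (SE 0.12, 95% interval -0.28 to 0.24) and -0.06 (SE 0.12, -0.33 to 0.20). These were the narrowest intervals among the 9 genes in the fit of all libraries. Without AUG_WT replicate 1, Tep1 had the smaller SE in the AUG line, 0.11 against 0.13 for Parn. The within-group SD of Tep1 was then also smaller, 0.139 against 0.170 for Parn.

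Tep1 had the smallest unadjusted p-value of the mutant comparisons. It had 32.8, 34.7, 40.8 and 39.4 CPM in the AUG livers, against 57.0, 48.1, 36.8 and 43.6 CPM in the AUG_WT livers. Every AUG library was below the AUG_WT mean, and the groups overlapped through AUG_WT replicate 3. In the AUG line its log2 fold change was -0.33 (SE 0.12, 95% interval -0.59 to -0.07), with an unadjusted p of 0.0179 and an adjusted p of 0.561 from edgeR. Without AUG_WT replicate 1 the edgeR values were -0.20 (SE 0.11, -0.42 to 0.03) and an unadjusted p of 0.0818. In the del7 livers Tep1 had 39.9, 37.1, 34.5 and 41.6 CPM, against 43.1, 42.0, 38.7 and 37.0 CPM in the del7_WT livers, and its log2 fold change there was -0.07 (SE 0.12).

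**Figure D3:**
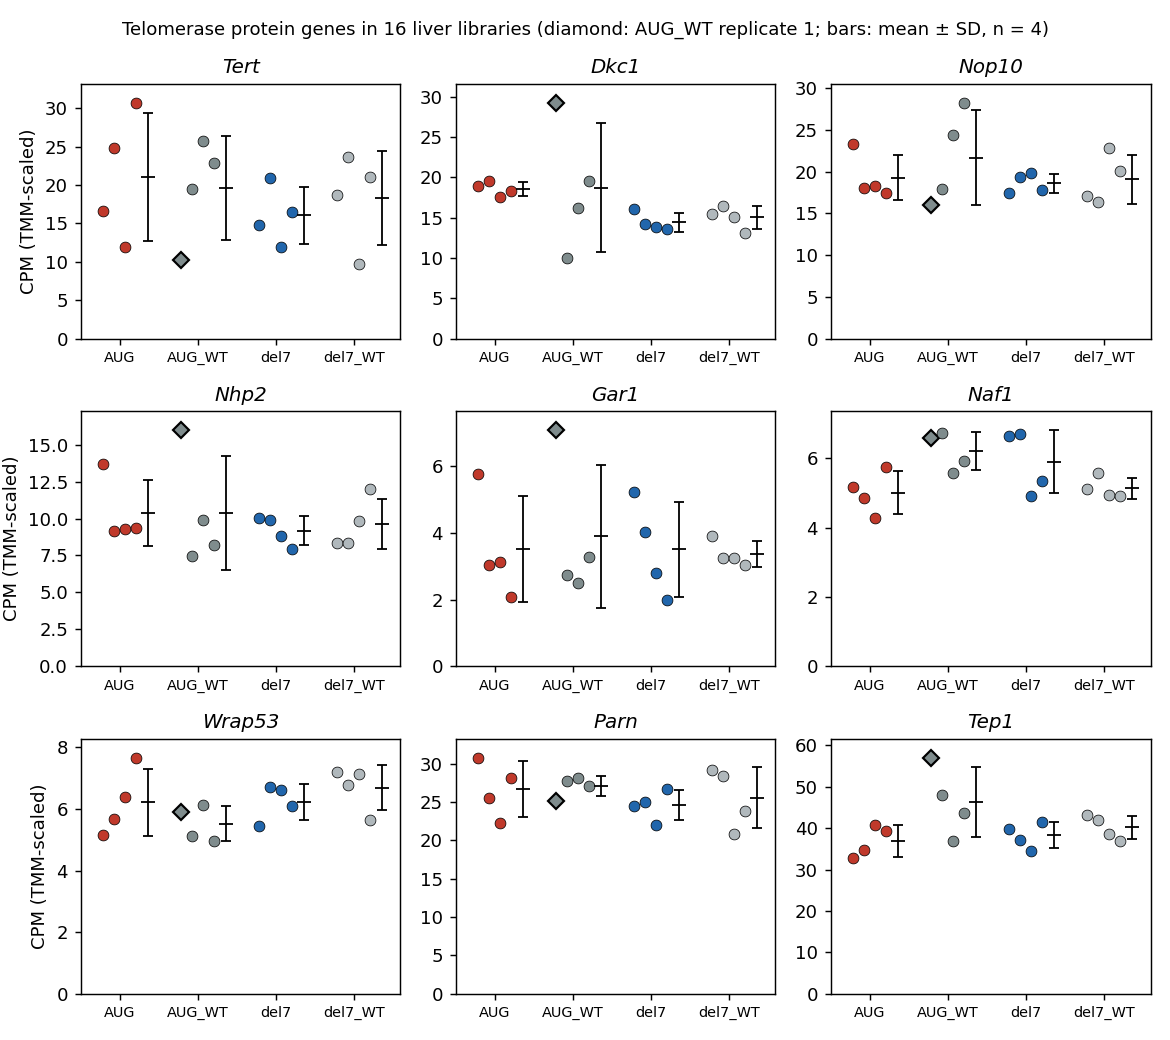
TMM-scaled CPM of the 9 genes in each library, by group, with the group mean ± SD (n = 4) as a bar beside the points and AUG_WT replicate 1 as a diamond. In every panel the mutant points overlap those of their wild types, and Tert and Gar1 spread over a 3.16-fold and a 3.56-fold range.

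In the AUG livers against AUG_WT livers, 0 of the 9 genes passed an edgeR adjusted p of 0.05, beside 0.0277% of all tested genes (4 genes), and DESeq2 and limma voom called 0 of the 9 too. Tep1 alone, 1 of 9, had an unadjusted p under 0.05, beside 8.81% of all tested genes. Groups that did not overlap in CPM were seen in 0 of 9, beside 2.05% of all tested genes. The log2 fold changes of the 9 genes ran from -0.33 to 0.17, with 2 above 0, 7 below 0 and a median of -0.02, where the median of all tested genes was -0.04. Without AUG_WT replicate 1, 4 were above 0 and the median was -0.03, where that of all genes was 0.01.

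In the del7 livers against del7_WT livers, 0 of the 9 passed the edgeR adjusted p, and the share of all tested genes was 0.0%. None had an unadjusted p under 0.05, beside 1.92% of all tested genes (277 genes), and neither limma voom nor DESeq2 called any of the 9. DESeq2 called 1 gene in all. Groups without overlap were seen in 0 of 9, beside 4.01% of all genes. The log2 fold changes ran from -0.20 to 0.20, with 2 above 0, 7 below 0 and a median of -0.06, where that of all genes was 0.00014. In the fit of all libraries, the 95% intervals of all 9 genes lay within a 2-fold change either way in both lines. The interval of Gar1 in the AUG line reached 1.04 on the log2 scale without AUG_WT replicate 1, just past 2-fold.

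The difference between the mutant effects passed the adjusted p in 0 of 9 genes, beside 0.00693% of all tested genes, and the unadjusted p in 1 of 9, which was Naf1, beside 5.21%. Its intervals were wider, and 7 of the 9 lay within 2-fold. Those of Tert and Gar1 did not, at -0.70 to 1.30 and -1.38 to 0.91.

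**Figure D4:**
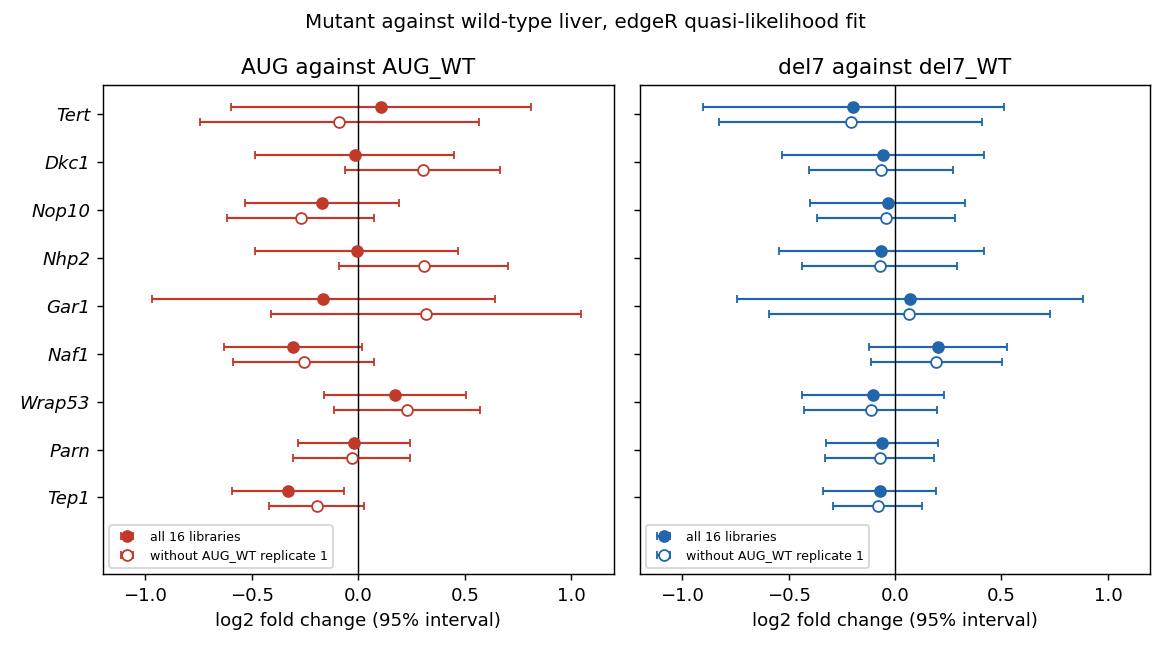
Log2 fold change with its 95% interval for each gene, in the AUG line (left) and the del7 line (right), from the fit of all 16 libraries (filled) and without AUG_WT replicate 1 (open). Only the filled Tep1 interval in the AUG line, -0.59 to -0.07, leaves out 0, and the open points of Dkc1, Nhp2 and Gar1 in that line sit near 0.30.

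The wild types of the lines were compared with each other to show how far 2 groups of unmutated livers could differ. AUG_WT replicates also serve as controls of the AUG livers, so these values are not independent of those above. AUG_WT livers against del7_WT livers gave 0 of 9 genes past the edgeR adjusted p, beside 0.0347% of all tested genes, and 0 of 9 with an unadjusted p under 0.05, beside 11.8%. Groups without overlap were seen in 0 of 9, beside 3.53% of all genes. Dkc1 had the largest difference, 0.32 (SE 0.22, 95% interval -0.15 to 0.79), which was 0.0039 without AUG_WT replicate 1. Wrap53 followed with -0.28 (SE 0.16, -0.61 to 0.06) and Naf1 with 0.27 (SE 0.15, -0.05 to 0.60), and these were -0.33 and 0.22 without that library. The 9 differences ran from -0.28 to 0.32, beside -0.33 to 0.17 in the AUG line and -0.20 to 0.20 in the del7 line.

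The strand-specific tables let reads on the opposite strand be counted for each gene. Tert had 3335 reads on its own strand and 1 on the other over the 16 libraries, and Gar1 and Parn had 0 on the other. Nop10, Wrap53 and Naf1 had at most 5. Nhp2 had 166 opposite reads, 8.54% of both strands, where the neighbouring gene Rmnd5b overlaps it on the other strand. Dkc1 had 133, or 4.23%, where Mpp1 overlaps on the other strand, and Tep1 127, or 1.72%, where Gm26782 does. Over all genes, the opposite strand held 266992 to 487455 reads per library, beside 7714058 to 14629022 on the gene's own strand. The part of the overlapping genes in these reads was not tested. A small nucleolar RNA gene, Gm25520, lies within Dkc1 on the same strand. With unstranded counts none of the 9 passed the edgeR test in any comparison.

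Genes that act around telomerase were read from 5 lists, and no gene of these lists passed the edgeR test, DESeq2 or limma voom in either mutant line. In both lines together, Terf2ip alone had an unadjusted edgeR p under 0.05, and this was in the del7 line. Of all tested genes, 8.81% had such a p in the AUG line and 1.92% in the del7 line. Among 17 genes of H/ACA assembly and telomerase folding, 7 were higher and 10 lower in AUG livers than in AUG_WT livers, none past the edgeR adjusted p, with a median log2 fold change of -0.03 beside -0.04 for all tested genes. Leaving out AUG_WT replicate 1, 14 of the 17 were higher and the median was 0.07, beside 7655 of 14582 genes higher and a median of 0.01 for all genes. In del7 livers 8 were higher and 9 lower, with a median of -0.0016 beside 0.00014 for all genes. Cct2, a subunit of the chaperonin that folds human TCAB1, had -0.16 (SE 0.12) in the AUG line. Smn1, the survival of motor neuron protein, had -0.19 (SE 0.20) in the AUG line and 0.25 (SE 0.20) in the del7 line. Coil, the scaffold of Cajal bodies, had 0.32 (SE 0.22) in the del7 line. Ptges3, the p23 co-chaperone, had 0.14 (SE 0.13) in the AUG line and -0.07 (SE 0.13) in the del7 line. None of these was called.

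Among 23 genes of telomerase RNA processing and decay, 11 were higher and 12 lower in AUG livers with a median of -0.00021, and 14 were higher and 9 lower in del7 livers with a median of 0.03. In AUG livers 17 of the 23 were higher without AUG_WT replicate 1, and the median was 0.135. Tent4b, whose human counterpart adds the A tails that PARN removes, had 0.24 (SE 0.13) in the AUG line, with an edgeR adjusted p of 0.624. The exosome subunit Exosc8 had -0.45 (SE 0.27) in the AUG line, with an adjusted p of 0.638 from edgeR. The decapping enzyme gene Dcp2 had -0.04 (SE 0.16) in the AUG line and 0.21 (SE 0.17) in the del7 line. Exosc9, of the same exosome core, had -0.11 (SE 0.15) in the AUG line and 0.06 (SE 0.16) in the del7 line. In AUG_WT against del7_WT livers, Exosc9 had 0.36 (SE 0.16), with an edgeR adjusted p of 0.392. It alone of the 23 had an unadjusted edgeR p under 0.05 between these wild types, beside 11.8% of all tested genes.

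Among 10 genes of shelterin and the CST complex, which bind telomeric DNA, 4 were higher and 6 lower in AUG livers with a median of -0.02, and 5 were higher and 5 lower in del7 livers with a median of 0.02. In AUG_WT replicate 1, 6 of the 10 were highest of the 16 libraries, beside 28.9% of all tested genes. Without that library 6 of the 10 were higher in AUG livers and the median was 0.11. Terf2ip, the shelterin protein RAP1, had 0.33 (SE 0.14) in the del7 line, with an unadjusted p of 0.0295 and an adjusted p of 1.0 from edgeR. Ten1, of the CST complex, had -0.79 (SE 0.47) in the AUG line, with an edgeR adjusted p of 0.64. Terf2, which binds the double-stranded repeats, had 0.24 (SE 0.15) in the del7 line. Pot1a, which binds the single-stranded end, had -0.26 (SE 0.17) in the AUG line.

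Among 18 tested genes of telomere replication and recombination, 2 were higher and 16 lower in AUG livers, with a median of -0.16. None of the 18 passed the test, and in del7 livers 11 were higher and 7 lower with a median of 0.02. Of these 18 genes, 15 (83.3%) were highest of the 16 libraries in AUG_WT replicate 1, beside 28.9% of all tested genes. Without that library 12 were higher and the AUG median was 0.05. The share highest in that library was 23.5% in the H/ACA assembly and folding list and 43.5% in the RNA processing and decay list. In the list of box C/D particles and other pseudouridine synthases, described next, it was 41.7%. The 8 tested proliferation markers had a median of -1.68 in the AUG line, and 0.20 without that library. Nbn and Rad50, both of the complex that senses DNA ends, had 0.26 (SE 0.13) and -0.24 (SE 0.13) in the AUG line, with edgeR adjusted p-values of 0.586 and 0.614. Samhd1, a dNTP hydrolase, had -0.75 (SE 0.43) there and Zfp827 had -0.82 (SE 0.44). In AUG_WT against del7_WT livers, Samhd1 had 0.95 (SE 0.43), with an edgeR adjusted p of 0.405, and Zfp827 had -0.21 (SE 0.41). Samhd1 alone of the 18 had an unadjusted edgeR p under 0.05 between these wild types, beside 11.8% of all tested genes.

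Among 12 genes of the box C/D particles and other pseudouridine synthases, 6 were higher and 6 lower in AUG livers with a median of 0.05, and 8 were higher and 4 lower in del7 livers with a median of 0.07. In AUG livers 10 of the 12 were higher without AUG_WT replicate 1, and the median was 0.14. Fbl, the methyltransferase of box C/D particles, had -0.30 (SE 0.14) in the AUG line, with an edgeR adjusted p of 0.578. Znhit3, a box C/D assembly factor, had 0.38 (SE 0.20) there, with an edgeR adjusted p of 0.614. Nufip1, another of these factors, had -0.21 (SE 0.20) there. In AUG_WT against del7_WT livers, Fbl had 0.31 (SE 0.14), with an edgeR adjusted p of 0.416. It alone of the 12 had an unadjusted edgeR p under 0.05 between these wild types, beside 11.8% of all tested genes.

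Small nucleolar RNAs of the H/ACA class are bound by the same core proteins as the telomerase RNA. Of 37 Snora genes with a row, 18 had a read in any library and 2 passed the count filter. Snora73b held 80.0% of their 5662 reads. It averaged 30.8 CPM in AUG livers (13.7 to 45.1) and 26.3 CPM in AUG_WT livers (8.25 to 44.0). The means were 24.0 CPM in del7 livers (17.8 to 32.0) and 22.2 CPM in del7_WT livers (11.6 to 33.6). The spread within groups exceeded these differences, and the log2 fold changes were 0.23 (SE 0.47) and 0.12 (SE 0.47), neither past the edgeR test. Snora23 averaged 3.35 CPM in AUG livers (1.26 to 5.90) and 2.46 CPM in AUG_WT livers (1.40 to 3.75), with a log2 fold change of 0.45 (SE 0.46) that was not called either. For the other Snora genes the reads were too few to show a difference, and why they were few was not tested.

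The genes whose profile over the 16 libraries lay nearest to Dkc1 were sought among 12330 tested genes with an established name. Likeness was measured on log2 CPM, with the mean of the gene subtracted, as the root mean square difference between 2 profiles. Msi2 at 0.176, Rap1a at 0.182 and Cox17 at 0.183 were nearest, where the median gene was at 0.436 and a flat profile would be at 0.324. All 16 points share the level of AUG_WT replicate 1, and without it the nearest were Ttr at 0.124, Nxt2 at 0.132 and Polr2f at 0.132. For Gar1, a gene chosen for this measure after its values were seen, Polr3d was among the 3 nearest both with and without that library, at 0.205 and 0.201.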

How the data were processed

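Total RNA from 10 mg of mouse liver per sample was depleted of ribosomal RNA and made into directional libraries, per the labels' protocols. The deposited tables hold raw read counts per gene for 16 libraries. The submitters' processing notes name cutadapt 2.10, STAR 2.7.9a and the build GRCm39, and no source used here names the annotation release. The series table equals the reverse-strand column of the per-sample tables in 16 of 16 libraries. Unmapped reads (2.82% to 3.93%), reads with several positions (9.23% to 15.0%), reads in no gene (21.8% to 35.0%) and ambiguous reads (0.802% to 1.00%) were left out of library sizes.

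Names, exon lengths and overlaps came from GENCODE M21, another build, which named 52081 of 55357 genes. Genes passing filterByExpr (minimum count 10) were fitted in edgeR 4.0.16 (R 4.3.3) with TMM scaling, 1 mean per group over all 16 libraries, glmQLFit and glmQLFTest, two-sided, with Benjamini-Hochberg adjustment over 14421 genes, threshold 0.05, and 12 residual degrees of freedom. The fit was tested on simulated data. Alternatives were RLE scaling, other filters, unstranded counts, DESeq2 1.42.0, limma 3.58.1 with voom, a replicate block, other control groups and leaving out libraries. Log2 CPM used a prior count of 2.

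The 10 members and the lists were chosen with earlier results of these data known. All members are named, and from each other list up to 4 genes with the smallest unadjusted p in any of the 4 comparisons. The closest pair of libraries differed by a chi-square of 8.60 per gene, so no library was counted as a repeat of another. Counting error alone limits genes with few reads.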

Additional observations from a re-analysis of the deposited data

Results flagged for a closer look

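In 36 groups of 4 libraries (9 genes in 4 groups), the gap between the most extreme library and its nearest neighbour was divided by the range of the group, and 3 exceeded Dixon's 95% critical value for 4 samples. Chance alone passes this limit in about 1 in 20 groups. Nhp2 in AUG replicate 1, at 13.7 CPM against 9.15 to 9.34 CPM in the other AUG libraries, had a ratio of 0.959. Nop10 in the same library, at 23.3 CPM against 17.4 to 18.3 CPM, had a ratio of 0.853. Gar1 in AUG_WT replicate 1, at 7.08 CPM against 2.50 to 3.27 CPM in the other AUG_WT libraries, had a ratio of 0.832. Gar1 was also the highest of its group in AUG replicate 1, at 5.78 CPM, but without exceeding the limit.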

How the results depend on the processing

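The count of telomerase genes past the threshold was 0 in all 4 comparisons under every alternative that was run, and the smallest adjusted p of any of them was 0.175, for Dkc1 between the wild types. Of 666 values of single genes under alternatives, 611 kept their direction and 55 changed sign, in results whose log2 fold change as reported was at most 0.234 in size. After the change of sign the values reached 0.32, for Gar1 in the AUG line without AUG_WT replicate 1, and the cause was not tested.

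With all 8 wild types as control, the AUG value of Dkc1 was 0.13, of Nhp2 0.050 and of Parn 0.020, and the del7 value of Gar1 was -0.048 and of Wrap53 0.027. With no filter the AUG values of Dkc1, Nhp2 and Parn were 0.031, 0.042 and 0.021. With limma voom the AUG values of Dkc1 and Nhp2 were 0.058 and 0.016. The AUG value of Nhp2 was 0.0047 with DESeq2, 0.0074 with RLE scaling and 0.0077 with unstranded counts.

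With the replicate block, the AUG values of Dkc1 and Nhp2 were 0.029 and 0.016 and the del7 value of Gar1 was -0.0045. Deviations of same-numbered libraries correlated at -0.117, -0.092, -0.157 and 0.351 between AUG and AUG_WT and at 0.176, 0.275, 0.283 and 0.092 between del7 and del7_WT. Not every pair exceeded 0.1, and the numbers were not taken as pairs. The AUG_WT deviations were taken from a mean that held AUG_WT replicate 1, so each carries a part of that library. In the AUG line these correlations therefore cannot show that pairing is absent. Of 8 libraries in each line, 2 in the AUG line and 6 in the del7 line correlated best with their own number, which in the del7 line is a hint of pairing from the data, not from the labels. The block left the counts of all genes at 4 and 0 in the mutant comparisons and gave 1 between wild types, where 5 were called without it, and 2 for the difference, where 1 was.

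When libraries were left out one at a time, AUG values ran from -0.13 to 0.30 for Tert, -0.21 to 0.30 for Dkc1, -0.16 to 0.31 for Nhp2, -0.51 to 0.32 for Gar1 and -0.090 to 0.061 for Parn. The del7 values ran from -0.10 to 0.062 for Nop10, -0.13 to 0.058 for Nhp2, -0.19 to 0.25 for Gar1 and -0.15 to 0.0086 for Parn. The difference between effects ran from -0.15 to 0.37 for Dkc1, -0.23 to 0.026 for Nop10, -0.092 to 0.38 for Nhp2, -0.57 to 0.25 for Gar1 and -0.026 to 0.13 for Parn. Between wild types the values ran from -0.12 to 0.28 for Tert, -0.20 to 0.23 for Nhp2, -0.26 to 0.36 for Gar1 and -0.0092 to 0.15 for Parn. Counts of all genes moved by over 1.5 times with DESeq2, to 9 in the AUG line against 4, 1 in the del7 line against 0, 6 for the difference against 1 and 70 between wild types against 5. Between wild types they were 13 with only those groups fitted, 11 with no filter, 3 with unstranded counts and 1 to 10 with a library left out, and 10 without AUG_WT replicate 1. For the difference they were 2 with limma voom and 2 without AUG_WT replicate 1. The choice of AUG_WT replicate 1 as highest or lowest library was also examined under 2 further scalings chosen after seeing the data. Low read counts limit Gar1 most among the 9 genes, at 16 to 101 reads per library, and limit most Snora genes too.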
